A study of Mus musculus with 7 samples.

Results

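The genes described here encode the cullin scaffolds and the adaptor families of cullin-RING ubiquitin ligases. They were taken by symbol, as the genes named Cul, Klhl, Kbtbd, Btbd, Fbxo, Fbxw or Fbxl, leaving out Cul1 and Cul3, which are given with the partner genes below. Of the 14641 genes, 118 met this rule: 34 Klhl, 32 Fbxo, 17 Fbxl, 11 Btbd, 9 Kbtbd, 9 Fbxw and 6 Cul. RNA was sequenced from whole heart lysates of male mice on the C57BL/6J background, 4 non-transgenic littermates (NTG) and 3 mNrf2-TG mice, with 1 library per mouse. In mNrf2-TG mice, full-length mouse Nrf2 is driven by the αMHC promoter, which is active in cardiomyocytes. Both groups kept their own Nrf2 gene, and the labels name no treatment. The sources differ on age: 6 months by the sample labels of the transgenic mice, 6 to 7 by the methods and 7 to 8 by the series text.

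A cullin-RING ligase is built on a rod-shaped cullin that holds a RING protein at one end and an exchangeable substrate adaptor at the other. Cul1 takes F-box proteins through Skp1, whereas Cul3 binds BTB proteins directly, most of which recognise their substrates with a Kelch domain. Coupling of Nedd8 to the cullin switches the ligase on, and the COP9 signalosome removes it. The best known Cul3 adaptor is Keap1, which marks Nrf2 itself for destruction, and several Kelch and F-box adaptors are made mainly in heart and skeletal muscle, where they act on sarcomere proteins.

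Promoter sequences are shown for 5 of these genes because the transgene encodes a transcription factor and because the muscle adaptors form the group described most closely below. The RefSeq promoter table for GRCm38.p6 held 94 of the 118 genes. The core of the antioxidant response element to which Nrf2 binds, searched as TGACNNNGC on both strands, was present in the promoters of 21 of the 94 (22.3%), against 14.0% of the 27025 genes in the table and 16.6% of the 11584 other genes tested. Of the 10 genes with a promoter entry whose level differed between the groups by the test given below, 1 had the core, namely Fbxl20. The median Log2FC (log2 fold change, mNrf2-TG over NTG) was 0.02 for genes with the core and 0.10 for those without. The core of the Mef2 site, CTANNNNTAG, was found in 6 of the 94 (6.38%) against 4.23% of all genes, and in 4 of 11 muscle adaptors: Kbtbd12, Kbtbd13, Klhl33 and Klhl41. The E-box CAGCTG was found in 21 of the 94 (22.3%) against 18.3% of all genes, and in 4 of 11 muscle adaptors: Fbxo40, Klhl34, Klhl40 and Klhl41. The windows counted here ran on past the annotated start, unlike those printed below. The antioxidant cores of Fbxo8 and Fbxo11 and the E-boxes of Fbxo5 and Klhl10 lay only after the start. CAGCTG is its own reverse complement, and no match of one motif overlapped a match of another in the windows printed.

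The windows below run over the 250 bases before the annotated start, 5′ to 3′ on the strand of the gene, with matches to the 3 motifs in capitals. Fbxl20 (chr11:98149617-98149866, minus strand) holds the antioxidant core 167 bases before its start and lies in an intron of a longer Fbxl20 transcript. The second start of Fbxo40 (chr16:36979137-36979386, minus strand), within an intron of its longest transcript, holds the core at 105 bases and the E-box at 89 bases. Kbtbd13 (chr9:65391653-65391902, minus strand) holds the core at 247 bases and the Mef2 core at 140 bases. Klhl41 (chr2:69669870-69670119, plus strand) holds the E-box at 127 bases and the Mef2 core at 63 bases. Klhl40 (chr9:121777357-121777606, plus strand) holds the E-box at 10 bases. These matches describe the letters of the windows and are not binding sites shown by these data.
Fbxl20: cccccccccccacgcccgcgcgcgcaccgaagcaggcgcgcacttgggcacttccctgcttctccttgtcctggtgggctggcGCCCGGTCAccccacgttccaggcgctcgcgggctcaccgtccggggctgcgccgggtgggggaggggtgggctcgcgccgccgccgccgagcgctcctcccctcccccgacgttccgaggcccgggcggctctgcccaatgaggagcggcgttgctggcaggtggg
Fbxo40: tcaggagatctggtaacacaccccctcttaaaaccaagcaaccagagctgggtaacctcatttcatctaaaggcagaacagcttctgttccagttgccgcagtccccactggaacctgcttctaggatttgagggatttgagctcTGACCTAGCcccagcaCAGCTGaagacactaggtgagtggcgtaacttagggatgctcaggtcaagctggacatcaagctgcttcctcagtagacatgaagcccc
Kbtbd13: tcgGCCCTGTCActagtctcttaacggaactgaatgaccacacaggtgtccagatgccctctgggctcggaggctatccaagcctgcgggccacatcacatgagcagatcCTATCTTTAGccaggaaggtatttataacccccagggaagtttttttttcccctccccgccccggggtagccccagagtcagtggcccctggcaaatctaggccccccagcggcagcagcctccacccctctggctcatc
Klhl41: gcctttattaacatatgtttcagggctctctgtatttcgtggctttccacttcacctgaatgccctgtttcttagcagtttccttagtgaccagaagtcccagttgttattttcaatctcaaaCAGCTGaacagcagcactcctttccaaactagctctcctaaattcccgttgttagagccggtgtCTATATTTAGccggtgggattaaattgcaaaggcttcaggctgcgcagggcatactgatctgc
Klhl40: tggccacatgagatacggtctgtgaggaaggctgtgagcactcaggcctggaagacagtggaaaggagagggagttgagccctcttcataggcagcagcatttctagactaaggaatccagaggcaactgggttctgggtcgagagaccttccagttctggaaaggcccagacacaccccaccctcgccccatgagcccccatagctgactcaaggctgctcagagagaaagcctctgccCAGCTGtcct

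Between 6534684 and 8405857 reads per library were counted. Nfe2l2, the gene of the transgene, had between 729 and 1392 counts in the NTG libraries and between 10912 and 12839 in the mNrf2-TG libraries, which follows the labels. NTG 3 stood apart from the other NTG libraries: among 101 of the 118 genes with a mean of at least 10 counts, it was the library farthest from the NTG median in 40 (39.6%), and over all 12054 such genes in 36.6%. Summed cardiomyocyte markers (8 genes, 4 of them lower in mNrf2-TG) lay between 84928 and 89001 CPM (counts scaled to the library size) in NTG and between 72015 and 74294 in mNrf2-TG. Fibroblast markers (4 of 6 higher) summed to 1114 to 1442 against 1615 to 1734 CPM, and macrophage markers (5 of 6 higher) to 118 to 147 against 213 to 318 CPM. The part of these shifts in the results below was not tested, and in whole heart RNA fewer cells of a type cannot be told apart from less RNA per cell. Each mouse gave 1 library, so p-values measure the spread between these animals.

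Of the 118 genes, 12 were higher and 1 was lower in mNrf2-TG at an adjusted p under 0.05 (edgeR quasi-likelihood test, adjusted over 14637 genes). These 13 genes are 11% of the family members, and 17.2% of all genes tested were called. By direction, 10.2% of the members were higher against 8.48% of all genes, and 0.847% were lower against 8.73% of all genes. The higher genes were the scaffolds Cul7 and Cul9, the Kelch genes Klhl40, Klhl30, Klhl25, Klhl21 and Kbtbd11, and the F-box genes Fbxw17, Fbxl22, Fbxo9, Fbxl6 and Fbxl20. Klhl9 was the lower one. The median Log2FC was 0.07 over the 118 genes and 0.00 over all genes. Together the 118 genes took between 0.416% and 0.430% of the counts in NTG and between 0.459% and 0.470% in mNrf2-TG.

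Most changes were small. Only Fbxw17 and Klhl10 passed an unadjusted p under 0.05 with a fold above 2, 1 higher and 1 lower, which is 1.69% of the members against 5.65% of all genes (3.57% higher, 2.08% lower). Klhl10, a testis-expressed adaptor, had at most 10 counts in any library, and its normalized counts were 5.75, 9.0, 7.22 and 4.98 in NTG and 3.23, 0.985 and 4.54 in mNrf2-TG. The normalized counts of the groups did not overlap for 28 members (23.7%, against 29.7% of all genes), 22 of them higher (18.6% against 15.0%) and 6 lower (5.08% against 14.7%). At an unadjusted p under 0.05 there were 31 members (26.3% against 32.2%), with 24 higher (20.3% against 15.9%) and 7 lower (5.93% against 16.3%). Among the 69 members with a mean of at least 100 normalized counts, 8 were higher and 1 was lower (13% in all), and 24.1% of the 7986 genes at that depth were called.

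**Figure D1:**
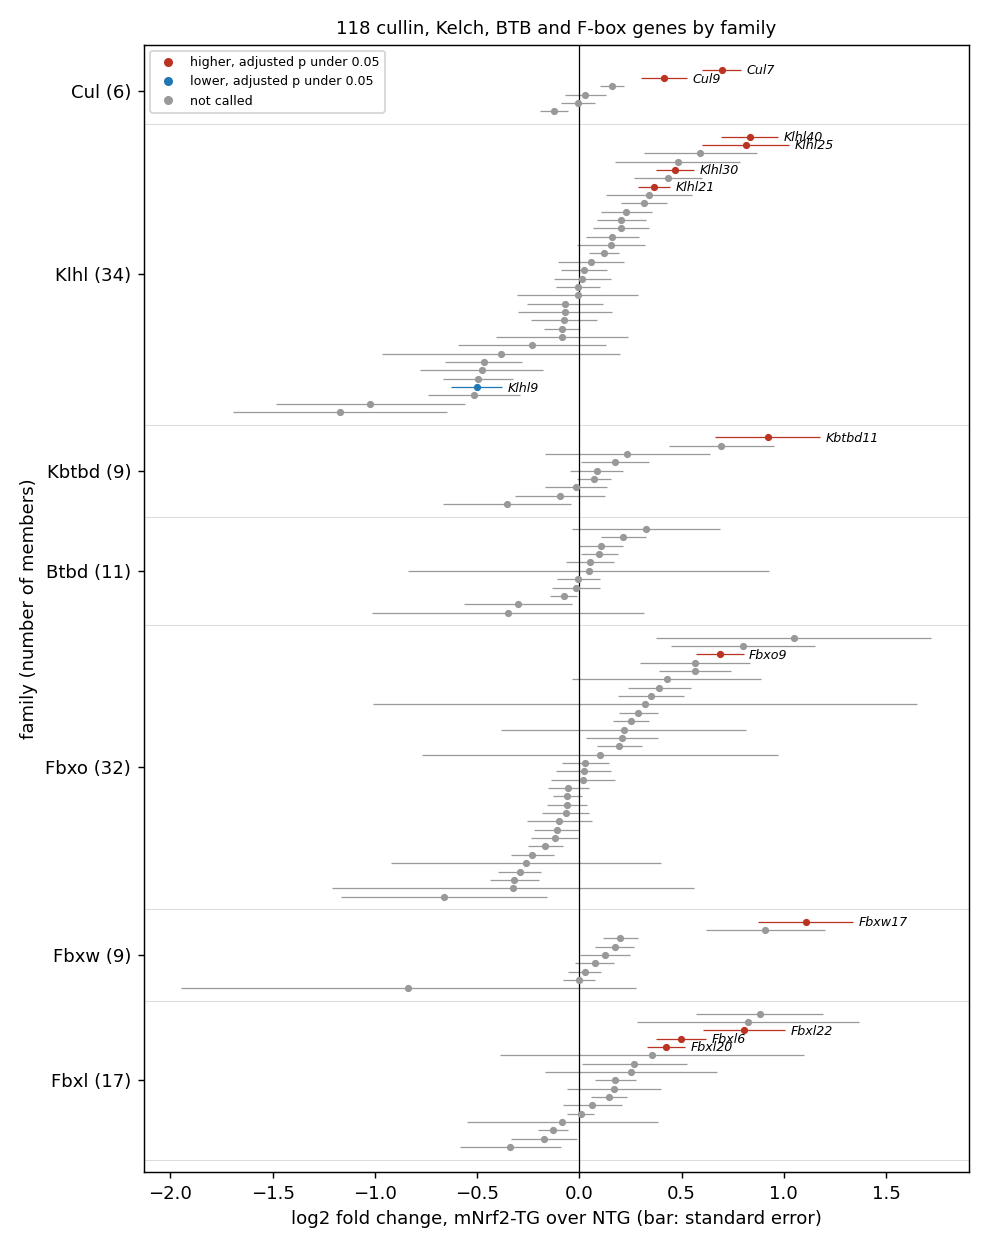
Log2FC of mNrf2-TG over NTG for each of the 118 genes, grouped by family and ordered within it, with standard errors. The 12 genes called higher (red) lie to the right of 0 and Klhl9, the only one called lower (blue), to the left, while the widest bars belong to genes with few counts.

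Among the 6 cullin scaffolds, Cul7 and Cul9 were higher (33.3%, against 8.48% of all genes), and the other 4 were not called. The groups did not overlap for 4 of the 6, and for 29.7% of all genes. Cul7, which works with the F-box protein Fbxw8 and is known for the turnover of insulin receptor substrate 1, had 157, 163, 173 and 188 normalized counts in NTG and 282, 293 and 255 in mNrf2-TG. Every mNrf2-TG library lay above every NTG library. The difference was a Log2FC of 0.70 (SE 0.0961, adjusted p = 0.0016), and it was called under each of the 14 alternative settings. Cul9, a large relative of Cul7 that binds p53 in the cytoplasm, had 215, 225, 232 and 175 in NTG and 272, 310 and 264 in mNrf2-TG (Log2FC 0.41, SE 0.11, adjusted p = 0.0323). The Cul9 groups did not overlap either, but the call was lost without NTG 1, NTG 2 or any single mNrf2-TG library, with an adjusted p of up to 0.117. Cul7 (chr17:46650337-46664364) and Cul9 (chr17:46500572-46546388) lie on opposite strands within the span of the long noncoding RNA gene Gm26904, on the strand of Cul7, and 0.414% and 0.453% of their exonic 50-base words occur in other genes, including each other.

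Cul4a, whose adaptors dock through Ddb1, had 1142, 1149, 1160 and 1150 normalized counts in NTG and 1320, 1278 and 1259 in mNrf2-TG. The groups did not overlap, yet the difference was small and was not called (Log2FC 0.16, SE 0.06, adjusted p = 0.0945). Cul5, the scaffold for SOCS-box proteins, had 645, 586, 619 and 639 in NTG and 569, 577 and 565 in mNrf2-TG, again without overlap and without a call (Log2FC -0.12, adjusted p = 0.236). Cul2, the scaffold of the von Hippel-Lindau ligase, had a Log2FC of -0.01 (95% interval -0.19 to 0.18) and Cul4b one of 0.03 (95% interval -0.19 to 0.25). Fbxw8, the F-box partner of Cul7, ranged from 445 to 516 in NTG and from 471 to 529 in mNrf2-TG (Log2FC 0.03, 95% interval -0.15 to 0.21).

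**Figure D2:**
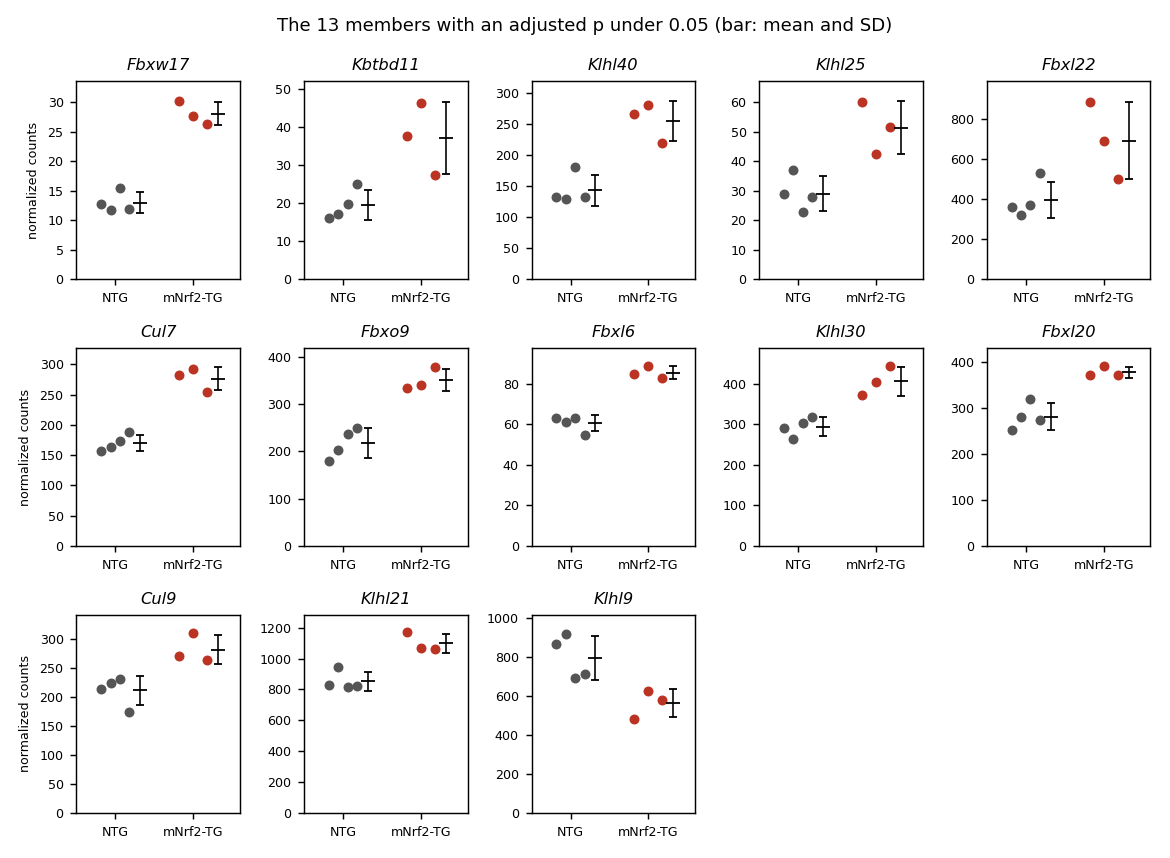
Normalized counts per library (vertical axes, from 0) of the 13 genes with an adjusted p under 0.05, in NTG (gray, n = 4) and mNrf2-TG (red, n = 3), with the mean and SD. The libraries of the groups do not overlap in 12 panels, while in Fbxl22 the lowest mNrf2-TG library (501) lies below the highest NTG library (530).

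The striated muscle adaptors numbered 14. Klhl40, Klhl30 and Fbxl22 were higher (21.4% of the list, against 8.48% of all genes higher), none was lower, and 11 were not called. The median Log2FC of the 14 was 0.39. Klhl40, which stabilises the thin filament proteins nebulin and leiomodin and is a nemaline myopathy gene in people, had 132, 129, 180 and 132 normalized counts in NTG and 267, 281 and 220 in mNrf2-TG. The mNrf2-TG libraries all lay above the NTG libraries, of which NTG 3 was the highest. The Log2FC was 0.83 (SE 0.14, adjusted p = 0.0045) with all libraries and 0.96 (adjusted p = 0.00051) without NTG 3. Klhl30, a muscle-expressed relative, had 292, 263, 303 and 318 in NTG and 371, 405 and 443 in mNrf2-TG (Log2FC 0.47, SE 0.0937, adjusted p = 0.0090). Its groups were separate, and both genes were called under each of the 14 alternatives.

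Fbxl22, an F-box protein of the cardiac Z-disc linked to the turnover of α-actinin and filamin C, had 362, 322, 371 and 530 normalized counts in NTG and 890, 691 and 501 in mNrf2-TG. The groups overlapped, since mNrf2-TG 19 lay below NTG 4. The Log2FC was 0.81 (SE 0.20, adjusted p = 0.0234), and the call was lost without NTG 1, NTG 2, mNrf2-TG 17 or mNrf2-TG 18, with an adjusted p of up to 0.0988. Fbxl22 (chr9:66508459-66514593) overlaps 317 bases of Herc1 on the opposite strand, and the sources do not state whether strand was used in counting.

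Klhl41, Klhl31 and Fbxo40 were not called by edgeR over all 7 libraries and were called without NTG 3. For Klhl41 and Klhl31 this was the only one of the 14 alternatives that gave a call. Klhl41, the Kelch partner of nebulin and another nemaline myopathy gene, had 616, 675, 1531 and 786 normalized counts in NTG and 1258, 1631 and 1192 in mNrf2-TG. NTG 3 lay among the mNrf2-TG libraries, and the other NTG libraries lay below all of them. The Log2FC was 0.59 (SE 0.28, adjusted p = 0.170) over all libraries and 0.97 (SE 0.13, adjusted p = 0.00076) without NTG 3. Klhl31, an adaptor for filamin C in skeletal muscle, had 714, 863, 1251 and 949 in NTG and 1376, 1367 and 1081 in mNrf2-TG (Log2FC 0.43, adjusted p = 0.103, and 0.60, adjusted p = 0.0072, without NTG 3). Fbxo40, which directs insulin receptor substrate 1 to degradation in muscle, had 1263, 1267, 1864 and 1300 in NTG and 2518, 2243 and 1562 in mNrf2-TG. Its Log2FC was 0.57 (SE 0.18, adjusted p = 0.0536) over all libraries and 0.72 (SE 0.14, adjusted p = 0.0064) without NTG 3. Fbxo40 was also called over all libraries by DESeq2 (adjusted p = 0.0144) and with the library total as the scale (0.0338), and without mNrf2-TG 19 (0.0196). In each of these genes NTG 3 was the highest of the NTG libraries. Without it, 6 of the 14 adaptors were higher and none was lower, against 10.1% of all genes higher and 10.1% lower. NTG 3 was singled out within these same data, and leaving out the highest control of a gene raises its fold by itself. The 6 of 14 is therefore a description only. Leaving out NTG 1, NTG 2 or NTG 4 instead added no muscle adaptor to the calls. Those fits called 1603, 1597 and 2143 of all genes, against 2519 over all libraries and 2950 without NTG 3. With fewer calls throughout, they cannot show whether the added calls are particular to leaving out NTG 3.

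NTG 3 was the library farthest from the NTG median in 9 of the 14 muscle adaptors. Other transcripts were also high in it, and these were picked after their values were seen. Acta2, the smooth muscle actin, had 893, 1213, 7707 and 1894 counts in NTG and 8693, 8390 and 6026 in mNrf2-TG, with NTG 3 again among the mNrf2-TG libraries. Smooth muscle and pericyte markers (0 of 6 higher, 1 lower) summed to 1455 CPM in NTG 3, 484 to 580 in the other NTG libraries and 1012 to 1511 in mNrf2-TG. Most of that sum in NTG 3 and in mNrf2-TG was Acta2: the other 5 markers summed to 399.5 CPM in NTG 3, 329 to 348 in the other NTG libraries and 268 to 312 in mNrf2-TG. Skeletal muscle markers (0 of 9 higher; Myh4, Myh1 and Ckm lower) summed to 2357 CPM in NTG 3, 1783 to 1844 in the other NTG libraries and 1402 to 1562 in mNrf2-TG. This sum was mostly Ckm, which cardiomyocytes also express, and the other 8 markers summed to 166 CPM in NTG 3, 85.8 to 113 in the other NTG libraries and 57.5 to 90.5 in mNrf2-TG. The markers of this list differed widely in level. The skeletal myosin Myh1 had 303, 508, 646 and 390 counts in NTG and 244, 329 and 233 in mNrf2-TG. Myh4, another, had 242, 409, 474 and 342 in NTG and 167, 248 and 157 in mNrf2-TG, and both were highest in NTG 3. Myh2 had 3, 2, 68 and 46 counts in NTG and 86, 81 and 69 in mNrf2-TG. Pvalb, a gene of fast skeletal muscle, was at or under 3 counts in every library. The part of these markers in the levels of the muscle adaptors was not tested.

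Klhl34, Fbxo32 and Fbxo30 overlapped between the groups and were not called. Klhl34 had 52.9, 27.9, 123 and 45.8 normalized counts in NTG and 39.8, 30.5 and 21.8 in mNrf2-TG. Its Log2FC was -1.02 (SE 0.46, adjusted p = 0.159) and moved to -0.45 (adjusted p = 0.309) without NTG 3, its highest library. Fbxo32 (atrogin-1), the F-box protein best known from muscle wasting, had 2391, 2453, 2032 and 2197 in NTG and 1907, 2464 and 2182 in mNrf2-TG, with a Log2FC of -0.05 (95% interval -0.28 to 0.17). Its groups overlapped throughout. Fbxo30 (MUSA1), also induced in wasting muscle, had a Log2FC of 0.03 (95% interval -0.22 to 0.28).

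Fbxo21 had 348, 382, 223 and 372 normalized counts in NTG and 444, 389 and 434 in mNrf2-TG, with NTG 3 the lowest (Log2FC 0.35, adjusted p = 0.166). Kbtbd13, the third nemaline myopathy gene among these adaptors, had 20.7, 19.8, 14.4 and 13.9 in NTG and 31.2, 21.7 and 30.9 in mNrf2-TG. Its groups did not overlap, but the difference was not called (Log2FC 0.69, SE 0.26, adjusted p = 0.0904). Klhl33 (Log2FC -0.48), Klhl38 (-0.08) and Kbtbd12 (-0.09) overlapped between the groups, and their adjusted p lay between 0.307 and 0.809.

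**Figure D3:**
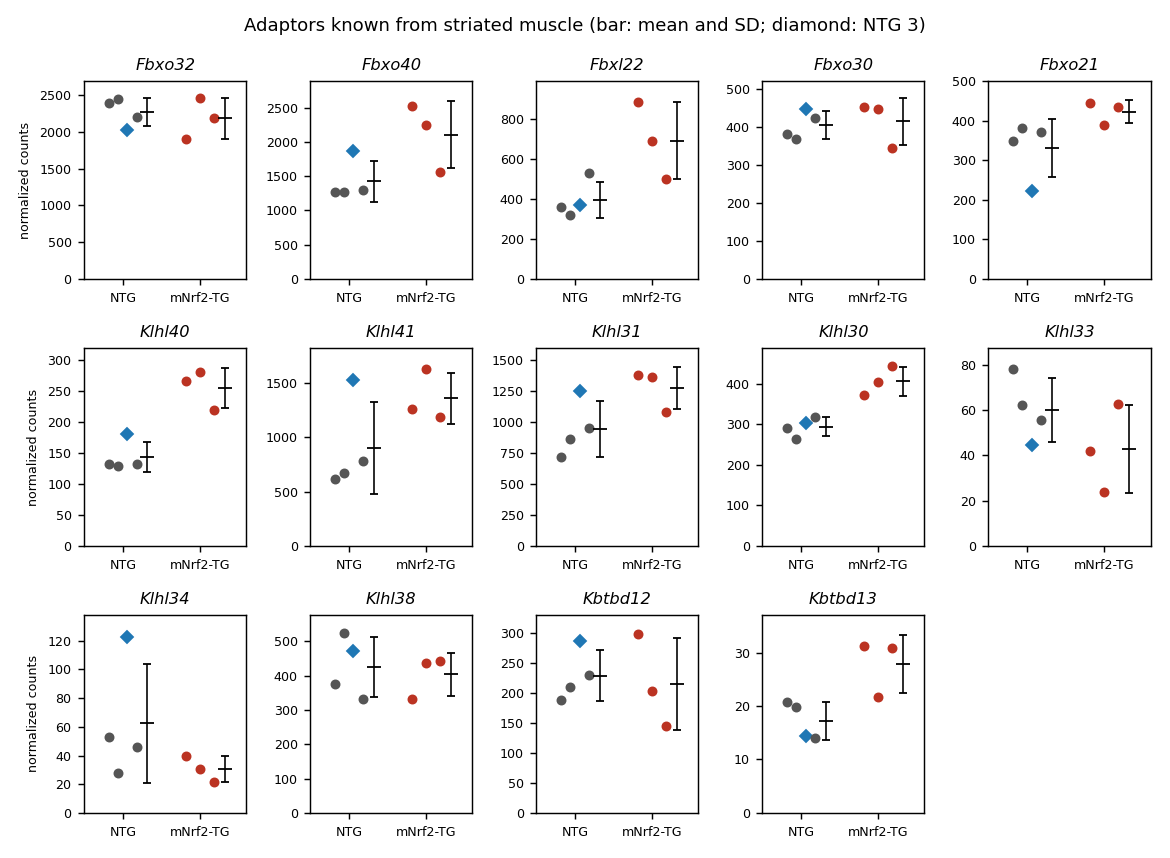
Normalized counts per library (vertical axes, from 0) of the 14 striated muscle adaptors in NTG (gray circles, NTG 3 as a blue diamond) and mNrf2-TG (red), with the mean and SD. NTG 3 lies at or near the mNrf2-TG libraries for Klhl41 (1531), Klhl31 (1251) and Fbxo40 (1864), and far above all others for Klhl34 (123).

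Among the Kelch adaptors linked to cell division, 1 rose and 1 fell. Klhl21, which brings Aurora B to the spindle midzone, had 827, 946, 815 and 824 normalized counts in NTG and 1169, 1066 and 1062 in mNrf2-TG. The groups did not overlap (Log2FC 0.37, SE 0.078, adjusted p = 0.0119), and the call was lost without mNrf2-TG 17 (adjusted p = 0.0540). Klhl9, which acts on Aurora B with Klhl13, had 867, 920, 692 and 712 in NTG and 484, 624 and 581 in mNrf2-TG. All mNrf2-TG libraries were below the NTG libraries (Log2FC -0.50, SE 0.12, adjusted p = 0.0220), and the call was lost without NTG 1, NTG 2, mNrf2-TG 17 or mNrf2-TG 19, with an adjusted p of up to 0.0884. Klhl9 (chr4:88718292-88722465) shares 661 bases with Gm26566 on the opposite strand. Klhl13 overlapped between the groups (Log2FC -0.07, 95% interval -0.48 to 0.35).

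Of the 9 listed cell cycle adaptors 8 were among the genes tested, and Klhl21 and Klhl9 were the only ones called (12.5% in each direction, against 8.48% of all genes higher and 8.73% lower). Fbxw7, the adaptor for cyclin E and Myc, ranged from 326 to 480 normalized counts in NTG and from 410 to 468 in mNrf2-TG (Log2FC 0.12, adjusted p = 0.528). Fbxo31 and Fbxo4, both linked to cyclin D1, had Log2FC values of -0.06 and 0.02, and Klhl22, an adaptor for the kinase PLK1, had 0.23 (adjusted p = 0.232). Fbxo5 (Emi1), an inhibitor of the anaphase-promoting complex, had 5.75, 6.30, 8.25 and 4.98 in NTG and 8.61, 10.8 and 13.6 in mNrf2-TG. These few counts did not overlap and gave no call (Log2FC 0.80, SE 0.35, adjusted p = 0.147).

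The remaining Kelch genes that rose were expressed at low levels. Klhl25, the adaptor for the translation inhibitor 4E-BP1, had 28.7, 36.9, 22.7 and 27.9 normalized counts in NTG and 60.3, 42.4 and 51.7 in mNrf2-TG (Log2FC 0.81, SE 0.21, adjusted p = 0.0280). Kbtbd11 had 16.1, 17.1, 19.6 and 24.9 in NTG and 37.7, 46.3 and 27.2 in mNrf2-TG (Log2FC 0.92, SE 0.26, adjusted p = 0.0345). Neither gene overlapped between the groups. The call for Klhl25 was lost without NTG 1, NTG 4, mNrf2-TG 17 or mNrf2-TG 19 (adjusted p up to 0.108), and that for Kbtbd11 without NTG 1, NTG 2, mNrf2-TG 17 or mNrf2-TG 18 (up to 0.13). Klhl2 and Klhl3, which target the WNK kinases of salt transport, were not called. Klhl2 had 222, 254, 356 and 208 in NTG and 180, 178 and 195 in mNrf2-TG, all mNrf2-TG libraries being lower (Log2FC -0.49, adjusted p = 0.0754, and -0.31, adjusted p = 0.0715, without NTG 3, the highest library). Without NTG 4 it was called (adjusted p = 0.0449), and Klhl3, at 8.87 to 17.2 normalized counts, overlapped.

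None of the 11 Btbd genes was called by edgeR, DESeq2 or limma-voom, 0 had an unadjusted p under 0.05, and none separated the groups. Over all genes edgeR called 17.2%, 32.2% had an unadjusted p under 0.05, and 29.7% separated the groups. Their Log2FC values ran from -0.35 to 0.33. Btbd1, which binds topoisomerase I, ranged from 1565 to 1653 normalized counts in NTG and from 1480 to 1612 in mNrf2-TG (Log2FC -0.08, 95% interval -0.22 to 0.07).

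Among the F-box genes, 5 of 58 were higher (8.62%, against 8.48% of all genes) and none was lower. Fbxo9, known from the turnover of the PI3K-related kinase partners Tel2 and Tti1, had 180, 203, 237 and 249 normalized counts in NTG and 335, 340 and 378 in mNrf2-TG. The groups stood well apart (Log2FC 0.69, SE 0.12, adjusted p = 0.0045). Fbxw17 had 12.6, 11.7, 15.5 and 12 in NTG and 30.1, 27.6 and 26.3 in mNrf2-TG, the largest change among the called members (Log2FC 1.11, SE 0.23, adjusted p = 0.0109). Its libraries did not overlap despite the low counts, and both genes were called under every alternative. The antisense gene Gm8739 covers 15917 bases of the Fbxw17 span (chr13:50417864-50433780).

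Fbxl20 (Scrapper), known from the turnover of a presynaptic protein in brain, had 252, 281, 321 and 274 normalized counts in NTG and 371, 392 and 372 in mNrf2-TG (Log2FC 0.42, SE 0.0921, adjusted p = 0.0128). The call was lost without mNrf2-TG 18 (adjusted p = 0.0504), and 4.77% of its exonic 50-base words also occur in the overlapping transcript Gm11632. Fbxl6 had 63.2, 61.2, 62.9 and 54.8 in NTG and 85.0, 88.7 and 82.6 in mNrf2-TG (Log2FC 0.50, SE 0.12, adjusted p = 0.0224). Both genes separated the groups. Fbxl6 was not called by DESeq2 or without NTG 2 or any single mNrf2-TG library, with an adjusted p of up to 0.0758. Fbxw9 had 10.3, 16.2, 24.8 and 14.9 in NTG and 36.6, 32.5 and 25.4 in mNrf2-TG, without overlap. Its Log2FC over all libraries was 0.91, which was not called by edgeR (adjusted p = 0.0591) but was called by limma-voom, with the library total as the scale and with a minimum of 10 counts. Without NTG 3 it was 1.16 (adjusted p = 0.0162).

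The adaptors that act on Nrf2, on its competitor Bach1 or on iron regulation were not called in any of 4 cases by edgeR, DESeq2 or limma-voom, and 0 had an unadjusted p under 0.05. Over all genes edgeR called 17.2%, and 32.2% had an unadjusted p under 0.05. A list of 4 genes is too short to be set apart from these shares. Fbxw11, a β-TrCP protein that can mark Nrf2 for degradation without Keap1, had 592, 512, 553 and 597 normalized counts in NTG and 579, 566 and 545 in mNrf2-TG. The groups lay on top of each other, with a 95% interval of the Log2FC from -0.17 to 0.17. Fbxl5, the iron-sensing adaptor for IRP2, had 510, 469, 470 and 445 in NTG and 434, 434 and 430 in mNrf2-TG, lower without overlap but not called (Log2FC -0.13, adjusted p = 0.251). Fbxo22 and Fbxl17, which both act on Bach1, had Log2FC values of -0.17 (95% interval -0.36 to 0.02) and 0.15 (95% interval -0.05 to 0.34).

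The 5 genes listed as sugar-binding F-box genes belong to a group of which some products recognise glycoproteins sent back from the endoplasmic reticulum. None was called, against 17.2% of all genes, and 0 had an unadjusted p under 0.05, against 32.2% of all genes. Fbxo6 ranged from 217 to 243 normalized counts in NTG and from 178 to 238 in mNrf2-TG (Log2FC -0.11). Fbxo44, its neighbour 0.66 kb away on chromosome 4, had 121, 123, 65.0 and 74.7 in NTG and 91.5, 177 and 156 in mNrf2-TG, with overlap (Log2FC 0.57, adjusted p = 0.176). Fbxo2, Fbxo17 and Fbxo27 had a mean under 10 counts.

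**Figure D4:**
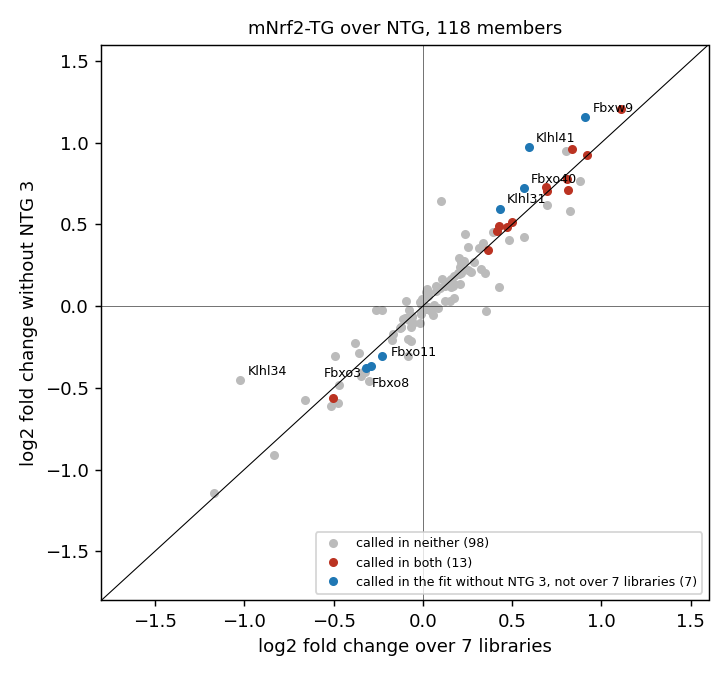
Log2FC of mNrf2-TG over NTG over all 7 libraries (horizontal axis) and without NTG 3 (vertical axis) for the 118 genes, with the line of equal values. The 13 called genes (red) were called in both fits, and 7 more (blue) were called in the fit without NTG 3 and not in that over all libraries. Klhl41 moves from 0.59 to 0.97 and Klhl34 from -1.02 to -0.45.

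Without NTG 3, 20 of the 118 genes were called, 16 higher and 4 lower, against 20.2% of all genes. All 13 genes above were among them. The 7 others were Klhl41, Klhl31, Fbxo40 and Fbxw9, which were higher, and Fbxo3, Fbxo8 and Fbxo11, which were lower. Fbxo3 had 987, 1011, 804 and 1032 normalized counts in NTG and 867, 703 and 780 in mNrf2-TG (Log2FC -0.37, adjusted p = 0.0142, without NTG 3). Fbxo8 had 568, 561, 442 and 484 in NTG and 423, 350 and 464 in mNrf2-TG (-0.38, adjusted p = 0.0349), and Fbxo11, an adaptor for BCL6, had 549, 495, 434 and 597 in NTG and 446, 432 and 449 in mNrf2-TG (-0.31, adjusted p = 0.0295). For these 3 genes NTG 3 was the lowest NTG library and lay within the range of the mNrf2-TG libraries.

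The partner genes of these ligases were taken from fixed lists. Of 21 genes of the cullin core and neddylation machinery, 3 were higher and 2 were lower (23.8% called, against 17.2% of all genes). Cul3, the scaffold for the Kelch adaptors, had 1749 ± 66.8 normalized counts in NTG (SD, n = 4) and 1185 ± 19.7 in mNrf2-TG (SD, n = 3), with a Log2FC of -0.56 (adjusted p = 0.00060) and no overlap. Nedd8, the modifier that activates cullins, fell from 220 ± 17.6 to 143.7 ± 7.98 (Log2FC -0.62, adjusted p = 0.0037). Skp1, which links F-box proteins to Cul1, was higher (1208 ± 77.1 against 1591 ± 122, Log2FC 0.40), as were Cand1, the adaptor exchange factor (Log2FC 0.47), and Eloc, the elongin subunit of Cul2 and Cul5 ligases (Log2FC 0.23, adjusted p = 0.0435). Cul1 had a Log2FC of -0.15 (adjusted p = 0.121) without overlap, and the RING protein Rbx1 one of 0.12 (adjusted p = 0.314).

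In the COP9 signalosome 1 of 10 genes was higher (Cops9, Log2FC 0.48) and 1 was lower (Cops3, Log2FC -0.25, adjusted p = 0.0394), 20% of the list in all against 17.2% of all genes. Of 35 adaptors with other symbols, 3 were higher and 3 were lower (17.1% called, close to the share of all genes). Keap1, the adaptor that joins Nrf2 to Cul3, was higher (336.6 ± 8.28 against 472 ± 31.4, Log2FC 0.49), so that scaffold and adaptor moved in opposite directions. Fbh1 (Log2FC 0.28, adjusted p = 0.0490) and Socs7 (0.44) were the other higher genes, and Enc1 (-0.92), the atypical GTPase Rhobtb1 (-0.80) and the growth hormone signal inhibitor Socs2 (-0.61) were lower. Of 12 muscle RING and other muscle ligases, Trim54 (MuRF3), a RING ligase of the MuRF family (1821 ± 110 against 2887 ± 112, Log2FC 0.66, adjusted p = 0.00038), and Asb2, a Cul5 adaptor for filamins (Log2FC 0.30, adjusted p = 0.0427), were higher, and Asb15 was lower (Log2FC -0.31, adjusted p = 0.0252). In all 25% of this list was called, against 17.2% of all genes. By direction 16.7% were higher against 8.48% of all genes, and 8.33% were lower against 8.73%.

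Levels were compared between genes as TMM-normalized CPM per kb of annotated exons. In NTG the highest were Btbd1 with 61.7 ± 1.64, Klhl41 with 47.4 ± 22.3 and Fbxo32 with 43.2 ± 3.65 (SD, n = 4). In mNrf2-TG the order was Klhl41 with 71.5 ± 12.4, Btbd1 with 58.5 ± 2.76 and Fbxo40 with 50.7 ± 11.9 (SD, n = 3). In NTG, Klhl41 differed from Btbd1 and from Fbxo32 by less than its SD, and in mNrf2-TG it exceeded Btbd1 by slightly more than its SD. The NTG level of Klhl41 includes NTG 3, at 1531 normalized counts against 616 to 786 in the other NTG libraries. Of the exonic 50-base words of Btbd1, 21.4% also occur in Gm14121. Klhl24, an adaptor for intermediate filaments, was near Fbxo40 in NTG (35.1 ± 5.25 against 34.3 ± 7.08). By count, 17 of the 118 genes had a mean under 10, 33 from 10 to 100, 61 from 100 to 1000, and 7 at least 1000, namely Btbd1, Cul4a, Fbxo32, Fbxo40, Klhl24, Klhl31 and Klhl41. The median SE of the Log2FC was 0.66 under 10 counts, 0.25 from 10 to 100 and 0.11 from 100 to 1000. Moderate changes of the 17 rarest members were therefore not detectable at this depth. Small changes can also be missed above 10 counts. In simulated data with 200 changed genes, 13% of changes with a Log2FC of 0.5 in either direction were recovered. That share does not carry over to these data, in which 2519 genes were called and the adjusted p is therefore less strict. Members with a Log2FC as small as 0.37 (Klhl21) were called here. A member that was not called may therefore still differ.

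**Figure D5:**
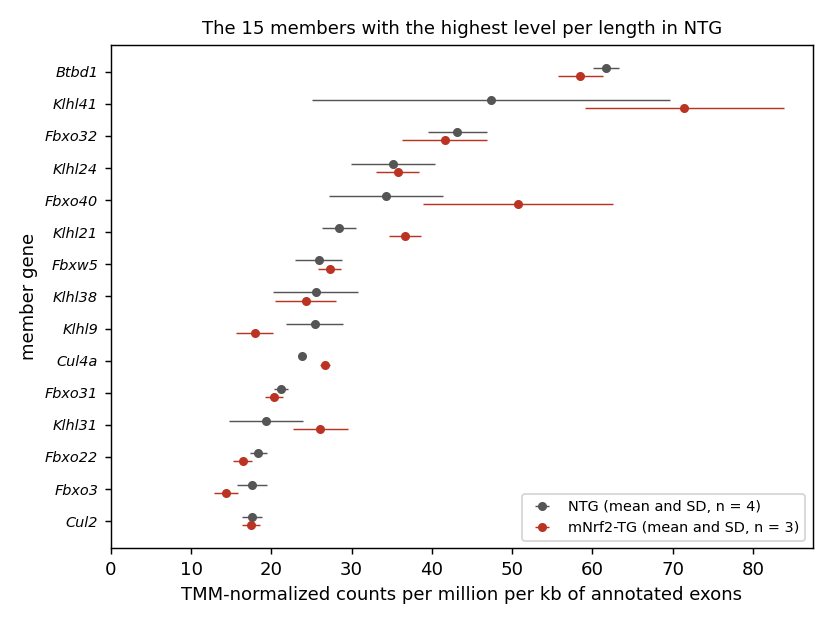
TMM-normalized CPM per kb of annotated exons (horizontal axis) of the 15 genes with the highest level in NTG, as mean and SD in NTG (gray, n = 4) and mNrf2-TG (red, n = 3). Btbd1 leads in NTG (61.7) and Klhl41 in mNrf2-TG (71.5), with wide SDs for Klhl41 and Fbxo40.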

How the data were processed

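Stranded poly(A)-selected libraries from 7 hearts were read as single ends of 50 bases. The submitters' processing notes name Novoalign 2.08.01, DESeq2 1.32.0 and mm10 (GRCm38), while the methods also name hg19 for the alignment index. The counting program and the use of strand are not given in the sources used here. The authors deposited read counts per gene without normalization. The authors' comparison table also holds a signal column, the mean of counts divided by DESeq2 size factors, and log2 fold changes with p-values that were not used here; gene symbols were taken from it. A table of rlog values was not used here.

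The table held 14665 entries. Repeated entries of 1 Entrez gene were removed (24), which left 14641 genes, and the 14637 with a summed count above 1 were tested across all genes. Groups came from the genotype labels. The main test was the quasi-likelihood test of edgeR 4.0.16 (R 4.3.3, TMM, no covariates) with Benjamini-Hochberg adjustment. The SE was obtained from the Log2FC and the F statistic, and intervals are 95%. Normalized counts are counts divided by the TMM-scaled library size and multiplied by its mean over libraries. The script was tested on simulated data in which 200 genes with a mean of at least 10 counts were changed. At a Log2FC of 0.5 in either direction edgeR recovered 13% of them, and 18.8% of its calls were false. At 1 it recovered 81%, with 7.95% false calls. Alternatives were DESeq2 1.42.0, limma-voom 3.58.1, edgeR scaled by DESeq2 size factors or by library totals, filterByExpr, at least 10 counts in every library of 1 group, no filter, and leaving out each library.

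Positions and exon lengths came from GENCODE M21 (GRCm38), which held 117 of the 118 genes; for Klhl17 no gene position is given, and its promoter was matched by Entrez gene. For exonic 50-base words, a word counted as shared if it occurred in a transcript of another gene. In the family genes, spans of 23 overlap a protein-coding gene, 20 on the opposite strand.

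Genes named by rule were all cullins, members of 6 adaptor lists, the 12 largest called increases and decreases with a mean of at least 10 normalized counts, the 3 highest levels per length, called genes of the partner lists, and Cul1, Cul3, Keap1, Rbx1 and Skp1. Fbxw8, Fbxw9, Fbxo3, Fbxo8, Fbxo11, Klhl10, Klhl24, Acta2, Myh1, Myh2, Myh4 and Pvalb were chosen after their values were seen. So were the Mef2 and E-box motifs and the promoters shown. Some genes that the rule names are not reported here. The members and lists were chosen with earlier results of these data known. Python 3.11.15 with pandas 2.3.3, numpy 2.4.6, scipy 1.17.1 and matplotlib 3.10.9 made tables and plots.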

Additional observations from a re-analysis of the deposited data

Results flagged for a closer look

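Of 43 named genes examined for an NTG library far from the other NTG libraries by Dixon's ratio, 3 passed its 95% critical value for 4 samples, and chance passes about 1 in 20 groups. Fbxo40 had 1864 normalized counts in NTG 3 and 1263 to 1300 in the other NTG libraries. Klhl40 had 180 in NTG 3 and 129 to 132 in the others. Klhl21 had 946 in NTG 2 and 815 to 827 in the others. Groups of 3 were not examined.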

How the results depend on the processing

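No paired analysis was possible because the groups share no replicate numbers. Over 14 alternatives, Cul7, Fbxo9, Fbxw17, Klhl30 and Klhl40 were always called, 8 called genes lost the call under at least 1 alternative, 12 others gained one, 93 were never called, and no result reversed. Leaving out 1 library gave 7 (without mNrf2-TG 17) to 20 (without NTG 3) called members, 7 to 16 higher and 0 to 4 lower. These were 5.93% to 16.9% of the members, while 9.39% to 20.2% of all genes were called (1373 to 2950 genes). For the counts by overlap, family and list under these settings, no share of all genes is given. Leaving out 1 library also left 32 to 44 members without overlap, since fewer libraries overlap less. It gave 1 to 2 Cul, 2 to 7 Klhl, 0 to 1 Kbtbd, 1 to 5 Fbxo, 1 to 2 Fbxw and 0 to 3 Fbxl genes, 2 to 6 muscle, 0 to 2 cell cycle, 0 to 1 WNK, 1 to 2 COP9, 3 to 7 other-symbol and 1 to 4 muscle RING genes, and 1 to 5 members by fold and unadjusted p. Fbxo genes numbered 2 under DESeq2, the library total, filterByExpr and the 10-count minimum, and Fbxw genes 2 under limma-voom, the library total and the 10-count minimum. The library total also gave 1 COP9 gene and, like both stricter filters, 1 member by fold. Klhl10 is removed by those filters, and the other causes were not tested.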
